A study of Arabidopsis thaliana with 8 samples.

Results

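In inflorescences of *Arabidopsis thaliana*, 92 of 22746 probe sets had a signal that was lower by a similar amount in 2 kinds of plant, T13 and HET, than in the other 2, CON and T14. All 4 groups were in the Ws accession and each was measured on 2 Affymetrix ATH1 arrays, which read transcripts through short DNA probes. CON is the control. T13 carries a T-DNA insertion (a stretch of transferred bacterial DNA that can disrupt a gene) in At3g47620, the gene TCP14, and T14 carries one in At1g69690, the gene TCP15. HET plants are heterozygous for an insertion at At1g69690 and for one at At3g47620, and a repeat is how the title describes HET replicate 2. The labels give no zygosity for T13 or T14, and each gene is represented by a single line, so insertion and line background cannot be told apart. Tissue was taken at growth stage 6.0 from compost-grown greenhouse plants, with 10 plants pooled. Whether paired arrays within a group had separate plant pools is not stated, so p-values measure the spread between arrays, which may be technical.

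The members were chosen from these same arrays. Signal was taken as log2(intensity + 16). A probe set was a member when its mean CON intensity was at least 60, when all 4 arrays of T13 and HET lay below all 4 arrays of CON and T14, and when the mean of CON and T14 exceeded the mean of T13 and HET by at least 0.8. The HET mean also had to lie no more than 0.5 below the T13 mean. These steps left 97 probe sets. Of the 11 genes that the rule leaves out by name, 5 were among them, which left the 92. The lower signal in T13 and HET is therefore how the members were found and carries no test here. The separation of the arrays alone was met by 419 of the 22746 probe sets, or 1.84%, and nothing is read from its presence in the members. Of the 92, 48 read 1 gene, 5 read several genes and 39 have no listed gene and stay unnamed. All 92 passed the filter on low signal that was used for the tests.

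TCP14 and TCP15 are plant transcription factors of the TCP family, which act on cell proliferation and growth in young organs. Inflorescences hold flowers at all stages, and so also anthers, in which pollen ripens. The pollen grain and the tube it sends out have a wall that is rich in pectin. Pectinesterases strip methyl groups from pectin, proteins of the invertase and pectinesterase inhibitor family can block such enzymes, and polygalacturonases and pectate lyases cut the chain. Many genes of these families are known to be expressed mainly in pollen, and others act in fruit and seed coat.

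The arrays share a scale, with a mean of 100 on each after trimming 2% at both ends. The GAPDH controls, whose 5' signal relative to the 3' signal reflects RNA integrity and labelling, gave 0.345 for HET replicate 1 and between 0.0639 and 0.129 elsewhere. TCP15 read 86 and 68.8 on the T14 arrays and 188.2 to 244 on the other 6. TCP14 was not analysed here. Of 50 genes in a list of mature pollen genes, 11 had a named probe set, and their summed intensity was 937 to 1020 in CON, 753 to 1040 in T14, 401 to 434 in T13 and 202 to 315 in HET. One of the 11, AT4G33970, is a member. Another 2 met the rule's other steps but had HET 0.5 or more below T13, and 3 are among the genes left out by name. All of these met the separation and the fall of the rule on these same arrays. PPME1, also on the list, is read by a member probe set that it shares with another gene. Of the 11, 9 were tested, and limma called 1 lower than CON for T13, 5 for HET and 0 for T14. The list's median differences were -0.88, -1.29 and -0.17. Every gene called is among those that met the separation and the fall, so the calls follow the choice and support nothing. The same genes enter the sums and medians. In the tapetum and pollen coat list, 3 of 19 genes had a named probe set (A9, ATA27 and AMS), with sums of 387 to 426 in CON, 116 to 221 in T14, 520 to 530 in T13 and 721 to 1110 in HET. The carpel and ovule list, with 2 of 7 genes, summed to 151 to 164 in CON, 136 to 188 in T14, 185 to 201 in T13 and 159 to 172 in HET. None of the markers measured in these 3 lists was at 0 on any array. The other lists held no member: 5 of 9 pollen regulators summed to 102 to 176 over the 8 arrays, the sperm gene HTR10 (1 of 8) read 2.3 to 27.6, 1 of 5 green tissue genes (RCA) read 1920 to 3400 and 1 of 4 meristem genes read 2.8 to 10.3. Of these 4 lists only 2 pollen regulators and RCA passed the filter, and none of these 3 was called lower for T13 or HET or called for T14. The part that cell makeup plays in the members' values was not tested, and in whole inflorescences fewer cells of a type and less RNA per cell cannot be told apart. None of the 8 floral identity genes or of the 4 stamen filament genes had a named probe set, so the tissue label was not checked by them.

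Across the 92 members, T13 kept a median of 30.2% of the CON intensity (range 2.86 to 53%) and HET 23.1% (1.16 to 64.7%). The low ends of both ranges rest on readings near 0 in the probe set of scpl36 and scpl37, which show only a low signal. The T14 signal was a median of 77% of CON (32.3 to 235%). On the log2(intensity + 16) scale the median difference from CON was -1.45 in T13, -1.66 in HET and -0.35 in T14, against 0.0198, -0.0052 and -0.00244 over the 11004 probe sets with a CON mean of at least 60. In 31 members with a CON mean of at least 200, the median shares of CON intensity, taken without the added 16, were 27.4% in T13, 23.4% in HET and 71.3% in T14. The lowest CON or T14 array exceeded the highest T13 or HET array by a median of 1.64-fold, by at least 2-fold in 28 members and by less than 1.1-fold in 8. In limma, 39 members were called lower in T13 against CON, where 0.585% of 15045 probe sets were, and 59 in HET against CON, where 1.02% were. Both contrasts went into the choice, so these counts describe the members and support nothing.

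**Figure D1:**
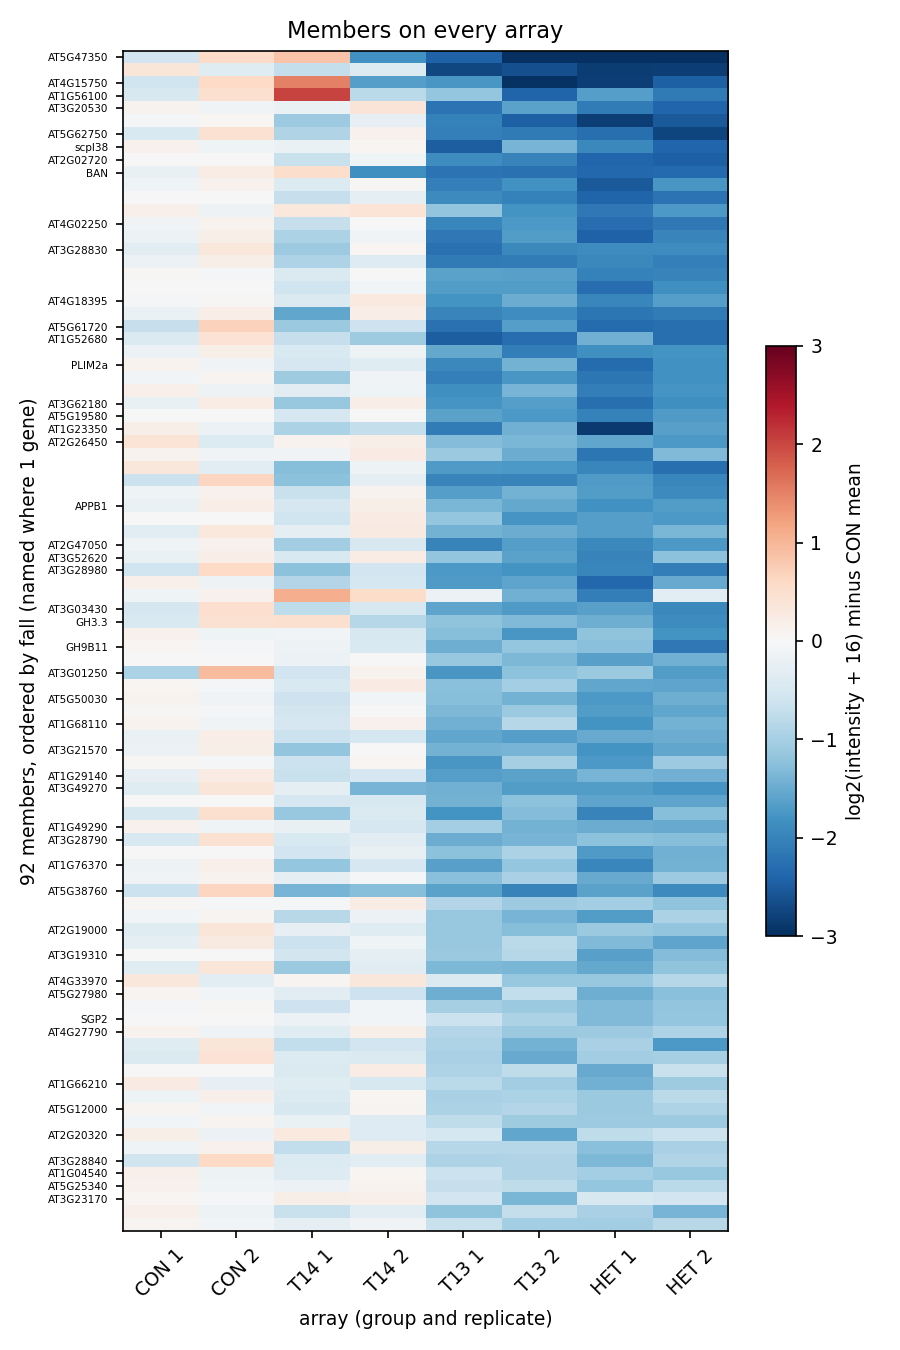
Each row is 1 of the 92 members, ordered by the size of the fall, and each column is 1 array. Colour gives log2(intensity + 16) minus the member's CON mean. The 4 columns of T13 and HET are below the CON mean in every row, in some only slightly on single arrays, while T14 replicate 1 is bluer than T14 replicate 2 in most rows and red in a few near the top.

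Of the 53 members with a listed gene, 12 read pectin enzymes or proteins of the inhibitor family. This grouping and those that follow rest on general knowledge of gene families and were made after the values had been seen. They serve to order the description, and how often such genes occur over the whole array was not tested. CON means of the 12 ran from 103 to 1370, T13 kept a median of 22.9% of CON (16.9 to 37.6%) and HET 19.6% (10.8 to 31.3%). T14 stood at a median of 77.6% of CON.

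AT2G02720, of the pectate lyase family, read 160.5 and 162.9 in CON, 96.2 and 146.7 in T14, 33.1 and 28.4 in T13, and 18 and 16.8 in HET. The groups followed each other without overlap, with HET lowest. Its HET minus T13 difference of -0.48 lies just inside the bound. AT4G02250, of the invertase and pectinesterase inhibitor family, read 280.8 and 331.8 in CON, 181.5 and 305 in T14, 66.3 and 81.4 in T13, and 50.2 and 56.8 in HET. CON and T14 overlapped there, and HET lay below T13 on both arrays.

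AT2G47050, of the same inhibitor family, had nearly the same mean in T13 (113.5 ± 22.2) and HET (112.5 ± 14.1, SD, n = 2). Its arrays read 398.4 and 482.1 in CON and 205.7 and 308.9 in T14, so T14 lay between CON and the low groups without touching either. AT5G50030, another inhibitor-family gene, read 613.7 and 522.5 in CON, 364.1 and 533.7 in T14, 223.7 and 203 in T13, and 159.4 and 196 in HET. It kept 37.6% of CON in T13, the highest share among the 12. The pectinesterase AT2G26450 read 159.8 and 83.8 in CON, 126.2 and 133 in T14, 37.5 and 34.8 in T13 and 28.7 and 24.2 in HET. Its T14 arrays lay between the CON arrays.

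The inhibitor-family genes APPB1, AT3G62180 and AT1G23350 kept 30%, 19.3% and 21.7% of CON in T13 and 22.6%, 12.4% and 13.6% in HET. AT1G23350 read 151 and 115.3 in CON, 61 and 74.8 in T14, 18.8 and 38.9 in T13 and 4.3 and 31.9 in HET. Its T13 and HET arrays were interleaved. The pectinesterase probe set listed for both PPME1 and AT5G07410 read 311.5 and 795 in CON, 204.2 and 402.4 in T14, 114.2 and 111.9 in T13 and 143.7 and 116.2 in HET. It cannot separate the 2 genes. T13 and HET kept 20.4% and 23.5% of CON there, so HET was not the lower of them. The probe set listed for the polygalacturonases AT3G14040 and AT3G07850 read 926.7 and 1804.9 in CON, 576.5 and 960.8 in T14, 365 and 517.8 in T13 and 310.3 and 524.3 in HET. Its T13 and HET arrays were interleaved.

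**Figure D2:**
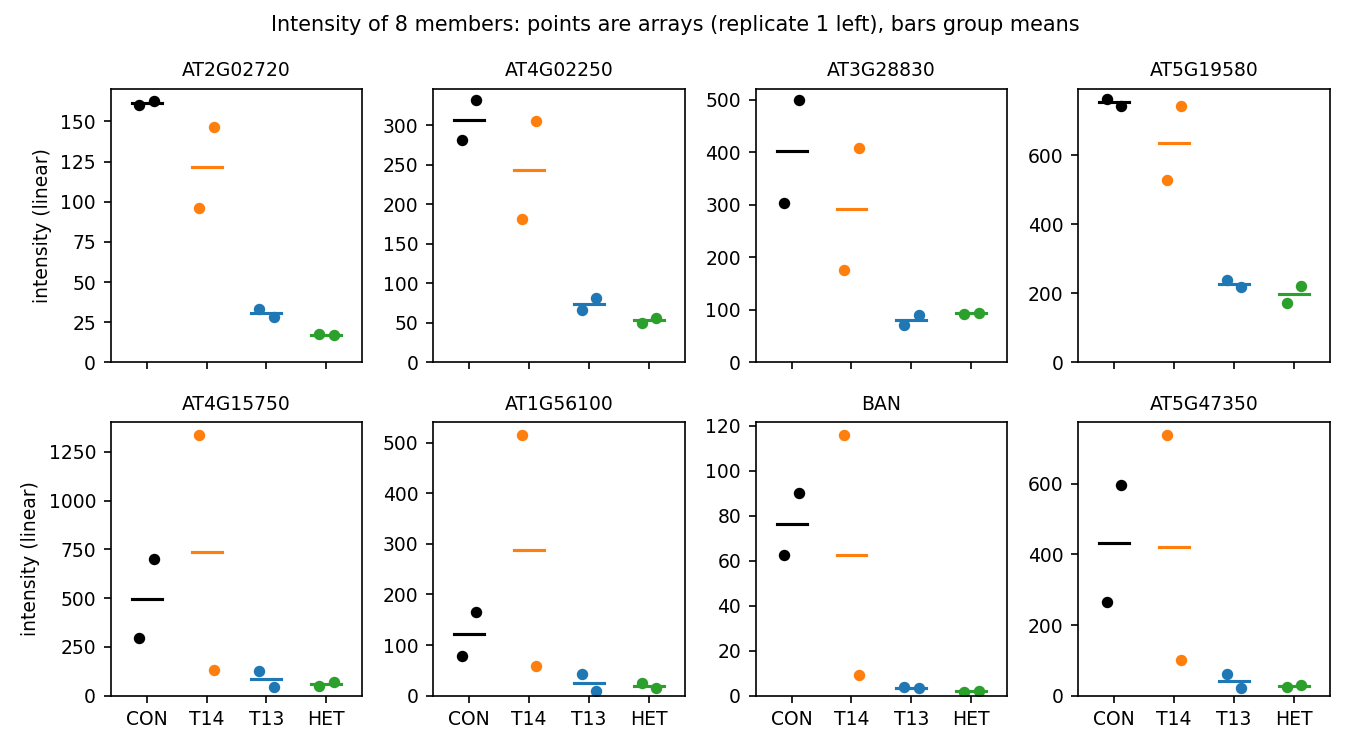
Intensity on a linear axis from 0 for 8 members, with a point for each array (replicate 1 to the left) and a bar at each group mean. In the upper row (AT2G02720, AT4G02250, AT3G28830 and AT5G19580) T14 replicate 1 is the lower T14 array. In the lower row (AT4G15750, AT1G56100, BAN and AT5G47350) it is the highest of all 8 arrays.

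A second group stood side by side in the genome. AT3G28790, AT3G28830 and AT3G28840 and a probe set shared by AT3G28810 and AT3G28820 were members, and in the gene order of RefSeq assembly TAIR10.1 no other protein-coding gene stands between these 5 loci. AT3G28980 is a further member 29 protein-coding genes along the same stretch of chromosome 3, counting both ends. These loci encode proteins that share a domain of unknown function, DUF1216. Of 11 named probe sets in the stretch 5 were members, while the other 6, among them AT3G28900 with means of 1120 in CON, 937 in T13, 1020 in T14 and 1030 in HET, were not.

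AT3G28830 read 304.3 and 499.5 in CON, 176.1 and 409.4 in T14, 70.6 and 90.3 in T13 and 93.2 and 94.5 in HET. AT3G28980 read 354.5 and 820.4 in CON, 222 and 359.4 in T14, 152.1 and 144.7 in T13 and 127.2 and 115.2 in HET. AT3G28790 read 291.2 and 557.8 in CON, 289.3 and 323.8 in T14, 133.5 and 143.5 in T13 and 163.3 and 156.9 in HET. In these 3 genes the second CON array was the higher by a wide margin, and T13 and HET each repeated closely. Over the 5 probe sets CON replicate 2 and T14 replicate 2 were the higher array of their group every time. HET was a median of 0.01 below T13 on the log2 scale (range -0.26 to 0.20), with HET above T13 in both AT3G28830 and AT3G28790. Chromosome 3, this stretch included, held 14 of the 48 members with 1 gene (29.2%), against 20.5% of all such probe sets. Among the members with a listed gene, the one closest to TCP14 in gene order, AT3G49270, stood 182 protein-coding genes away. The 39 members with no listed gene were not placed, so a closer one among them could not be seen.

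Other enzymes formed a group of 6. The serine carboxypeptidase-like gene scpl38 read 110.6 and 90.2 in CON, 85.4 and 104.6 in T14, 5 and 27.9 in T13 and 14.6 and 6.4 in HET. Its CON and T14 arrays were intermixed. A probe set listed for scpl36 and scpl37, which lie next to each other, read 143.9 and 80.2 in CON, 59 and 77.6 in T14, 2.6 and 3.8 in T13 and 1.2 and 1.4 in HET. Its T13 and HET readings are all near 0 and show only a low signal, so no fold is given.

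AT5G19580, a glyoxal oxidase-related gene, read 761.8 and 743.3 in CON, 528.8 and 742.3 in T14, 237.8 and 218.3 in T13 and 171.5 and 222.1 in HET. T13 and HET overlapped, at 30.3% and 26.2% of CON. GH9B11, a family 9 glycosyl hydrolase of the kind that cuts cellulose-like chains, read 67.7 and 61.6 in CON, 56.6 and 42.8 in T14, 13.2 and 20.3 in T13 and 17.9 and 2.3 in HET. The subtilisin-like protease AT1G66210 had one of the smaller falls, from 95.5 ± 26.9 in CON to 42.2 ± 6.58 in T13 and 30.6 ± 8.41 in HET (SD, n = 2 each).

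Signalling, calcium and cytoskeleton genes made up 11 members, with CON means from 64.8 to 255. They kept a median of 39.7% of CON in T13 and 28.1% in HET. The protein kinase AT3G20530 read 106.8 and 89.5 in CON, 83.3 and 132.4 in T14, 8.5 and 21.6 in T13 and 10.5 and 5.8 in HET. PLIM2a, a LIM-domain protein that bundles actin filaments and is known from pollen, read 274.6 and 234.5 in CON, 174.2 and 194.4 in T14, 54.9 and 84.6 in T13 and 38.8 and 60.4 in HET. The T13 and HET arrays of PLIM2a overlapped, and T14 lay wholly between CON and the low groups.

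Among the calcium-binding EF-hand genes, AT3G03430 kept 21.3% of CON in T13 and 18.3% in HET, and AT4G27790 kept 39.7% and 39.1%. SGP2, a Ras-related small GTP-binding protein, was steady in CON at 115.7 and 116.1 and in T14 at 101.3 and 108.1. It read 67.8 and 52.2 in T13 and 36.3 and 42.7 in HET, so T13 and HET did not overlap. The kinase AT5G12000 (45.5% of CON in T13, 41.6% in HET) and the C2-domain gene AT1G04540 (51.2% and 37.2%) kept more of their signal. AT2G20320, of the DENN-domain family, read 78.1 and 58.7 in CON, 87 and 48.3 in T14, 42.3 and 12.6 in T13 and 33.5 and 38 in HET, with both HET arrays inside the T13 range.

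Proteins of the wall itself were represented by 3 members. AT4G33970, a leucine-rich repeat extensin on the mature pollen list, read 103.5 and 59 in CON, 83.7 and 104.3 in T14, 54.6 and 27.2 in T13 and 26.9 and 36.3 in HET. Its CON replicate 2 exceeded its T13 replicate 1 by only 1.08-fold. AT1G29140, of the pollen Ole e 1 allergen and extensin family, read 168.2 and 240.4 in CON, 120.5 and 137.2 in T14, 52.7 and 55.3 in T13 and 67 and 64.5 in HET. It is one of 8 members in which both HET arrays lay above both T13 arrays.

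Late embryogenesis abundant and seed maturation proteins, which build up as seeds and pollen dry, gave 3 members. AT5G38760 read 156.5 and 401.7 in CON, 86.1 and 94.3 in T14, 72.1 and 51 in T13 and 71.6 and 55.8 in HET. T14 stood at 32.3% of CON, the lowest share among the 92, and close to the 22.1% of T13 and 22.8% of HET. AT1G52680 read 74 and 150.1 in CON, 60 and 42.6 in T14, 6.2 and 9 in T13 and 29.2 and 9.5 in HET. AT5G27980 read 74.4 and 64 in CON, 52.2 and 38.9 in T14, 15 and 34.7 in T13 and 14.9 and 19.7 in HET. In all 3 the T14 arrays lay below the CON arrays.

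Among the members, 6 differed from the rest in how the 2 T14 arrays stood to each other. They were singled out after their values had been seen, and no test was made. In each of them T14 replicate 1 was at least 1 log2 unit above replicate 2. AT4G15750 and AT1G56100 are among the 12 pectin members, AT5G47350 among the 6 other enzymes and AT3G49270 among the 3 wall proteins. BAN and GH3.3 belong to none of the groups above. BAN, which encodes anthocyanidin reductase, an enzyme of proanthocyanidin synthesis in the seed coat, read 62.3 and 90.2 in CON, 115.8 and 9.3 in T14, 3.8 and 3.3 in T13 and 1.7 and 2.2 in HET. The inhibitor-family gene AT4G15750 read 294.7 and 698.5 in CON, 1336.9 and 133.5 in T14, 124.1 and 44.2 in T13 and 51 and 70.6 in HET. The inhibitor-family gene AT1G56100 read 78.5 and 166.1 in CON, 514.9 and 58.8 in T14, 42.5 and 8.8 in T13 and 25.4 and 14.2 in HET. All 3 had T14 replicate 1 above every other array and T14 replicate 2 below both CON arrays.

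AT5G47350, of the alpha/beta-hydrolase family, had the largest fall among the 92, 2.86 on the log2 scale, and read 264.7 and 597.6 in CON, 738.4 and 101 in T14, 61.7 and 22.5 in T13 and 24.4 and 29.8 in HET. GH3.3, an enzyme that joins auxin to amino acids, read 99 and 199.7 in CON, 204.3 and 71.7 in T14, 52 and 46.5 in T13 and 40.9 and 26.5 in HET. The extensin-like gene AT3G49270 read 300.9 and 511 in CON, 316.5 and 138.9 in T14, 134.6 and 111.6 in T13 and 111.8 and 103.1 in HET. On the log2(intensity + 16) scale T14 replicate 2 minus replicate 1 ran from -3.18 in AT4G15750 to -1.10 in AT3G49270, with BAN at -2.38. CON replicate 2 was above replicate 1 in 6 of the 6, next to 49 of the other 86 members, and T13 replicate 1 was above replicate 2 in 6, next to 43 of 86. The T13 order of BAN rests on readings of 3.8 and 3.3, which are only low signals. T14 replicate 2 exceeded the highest T13 or HET array by 1.03-fold in AT3G49270, 1.08-fold in AT4G15750, 1.38-fold in both GH3.3 and AT1G56100 and 1.64-fold in AT5G47350. For the lowest CON or T14 array the median over all members was 1.64-fold. In BAN these readings were 9.3 and 3.8, both only low signals, so no fold is given.

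**Figure D3:**
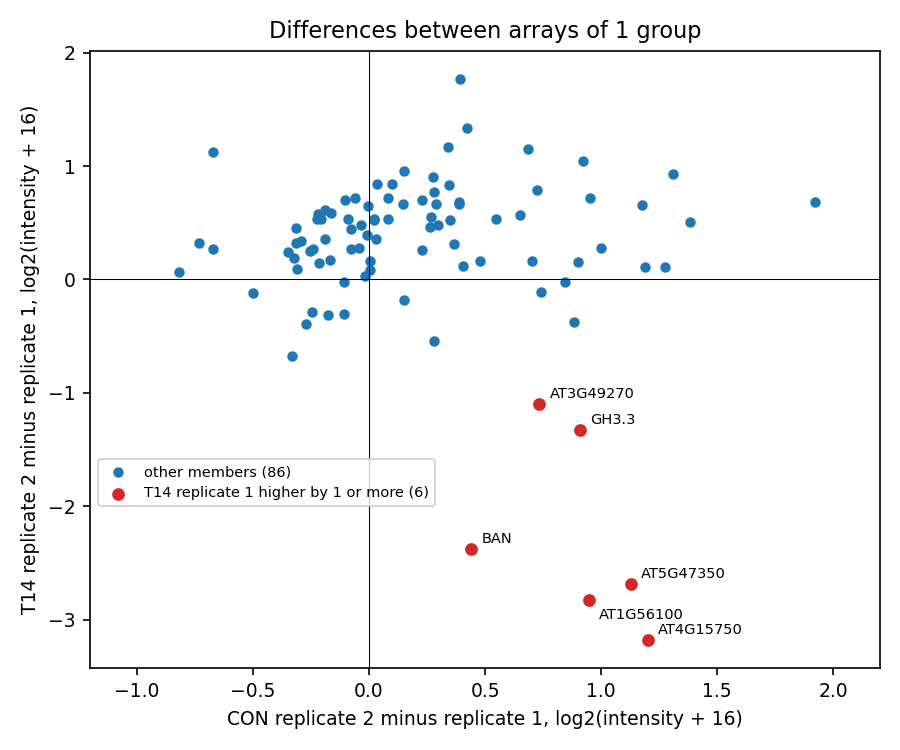
Each point is a member, placed by the difference between the CON arrays (horizontal) and between the T14 arrays (vertical), both replicate 2 minus replicate 1 in log2(intensity + 16). Most of the 86 other members lie above 0 on the vertical axis. The 6 named genes lie at -1 or below and to the right of 0.

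The other 86 members ran the other way in T14. In 74 of them replicate 2 was the higher, and their median difference of replicate 2 from replicate 1 was 0.458. Over all 92 it was 0.376, against 0.0272 over the probe sets with a CON mean of at least 60. T14 replicate 2 was above replicate 1 in 80.4% of members, where 49.9% of all probe sets and 53.1% of those with a CON mean of at least 60 were. The gap between T14 arrays did not go into the choice of members, beyond the demand that both lie above T13 and HET. The scanner background averages of the T14 arrays were 84.90 and 85.12 and their GAPDH ratios 0.0969 and 0.0718.

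The difference between HET and T13 was then examined among the members. The working name of the set, a fall equal in both, holds only within the bound that chose it. HET was below T13 in 77 members and above it in 15, with a median difference of -0.24 (range -0.49 to 0.53), against -0.0368 over the 11004 probe sets with a CON mean of at least 60. The rule bounds this difference from below, so its centre is not tested. In 46 members HET and T13 lay within 0.25 of each other. Both HET arrays were below both T13 arrays in 35 members (38%), where 26% of all probe sets and 25.3% of those with a CON mean of at least 60 were. The reverse order was seen in 8 (8.7%, against 14.6% and 18.9%). Without HET replicate 1, whose GAPDH ratio was the highest, the median was -0.14.

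Precision was low for single members. In the limma fit the 95% interval of the HET minus T13 difference held 0 in 89 of 92, but it also reached -0.5 or lower in 83 and 0.5 or higher in 37. A difference of that size could therefore not be resolved in most members with 2 arrays a group. No probe set of the 15045 was called between HET and T13, a share of 0% (limma). At an unadjusted p under 0.05 there were 3 of 92 members (3.26%), against 1491 of 15045 probe sets (9.91%), and the rule itself bounds this difference.

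AT1G52680 had the highest HET minus T13 difference, 0.53 (95% interval -0.27 to 1.33), and it comes from HET replicate 1 at 29.2, since HET replicate 2 at 9.5 was close to T13 at 6.2 and 9. AT3G23170 was next with 0.45. It read 100.2 and 91.9 in CON, 109.6 and 107.7 in T14, 59.2 and 27.3 in T13 and 64.5 and 59.7 in HET, so that T13 replicate 2 alone was far below. The lowest differences, from -0.49 to -0.47, were those of AT1G23350, AT2G02720, AT3G19310, a gene of the phospholipase C-like phosphodiesterase family, and 2 unnamed probe sets. AT3G19310 read 119.2 and 115.2 in CON, 74.6 and 94.1 in T14, 45.2 and 57.5 in T13 and 27.3 and 38.5 in HET, with the groups in that order and without overlap. Just outside the bound stood LCR72 and an unnamed probe set, both at -0.502, and another at -0.51.

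**Figure D4:**
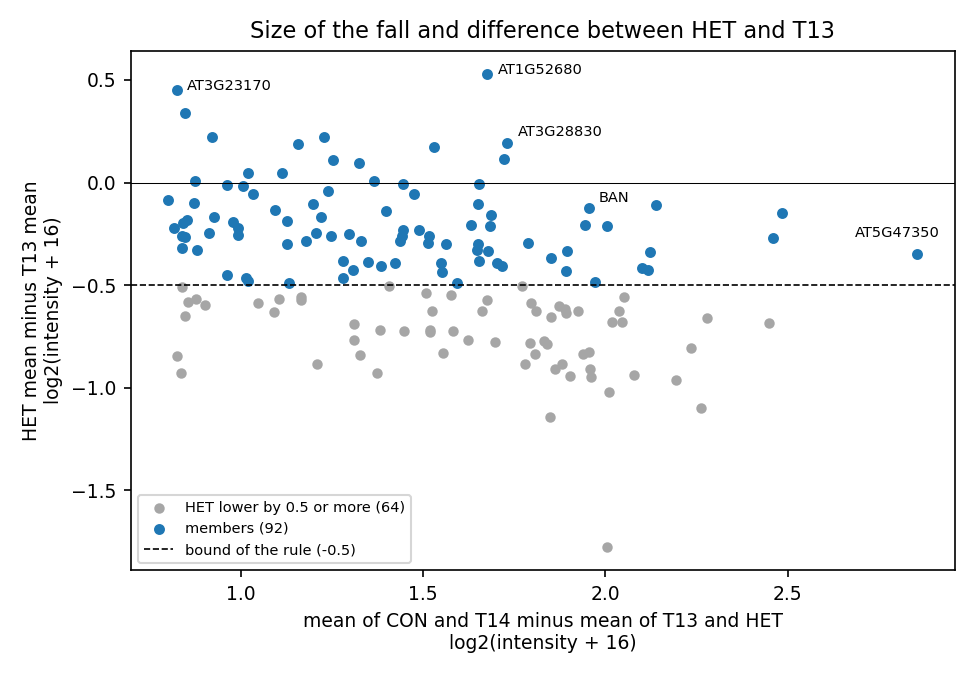
Each point is a probe set that met the other steps of the rule and is not left out by name. It is placed by the size of its fall and by its HET mean minus T13 mean, both in log2(intensity + 16). The 92 members are blue, the 64 probe sets at -0.5 or below are grey, and the dashed line is the bound. Points run across the bound without a gap, and few blue points lie above 0.

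T14, the line with the insertion in TCP15, was then compared with CON. The rule did not set these groups against each other, but it used both: CON had to reach 60, and all arrays of both had to lie above those of T13 and HET, so that a probe set far lower in T14 could not be a member. The counts that follow are therefore descriptions of the members. No member was called (limma, 0 of 92), where 0.0199% of all probe sets were, and the lowest adjusted p among members was 0.489. At an unadjusted p under 0.05 there were 16 members (17.4%), against 5.82% of all 15045 probe sets tested. The T14 mean was below the CON mean in 83 of 92 members, where 43.9% of all probe sets and 50.4% of those with a CON mean of at least 60 were. Both T14 arrays lay below both CON arrays in 32 members (34.8%, against 13.7% of all and 18.4% of those reaching 60) and above both in 3 (3.26%, against 20.3% and 17.4%). The rule asked for no minimum in T14 and so leaned towards probe sets high in CON, and the part of this in the median of -0.35 was not tested.

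That median rests mostly on 1 array. T14 replicate 1 lay a median of 0.496 below the CON mean and T14 replicate 2 a median of 0.124 below it, so that leaving out either T14 array gives a median of -0.124 (replicate 2 alone) or -0.496 (replicate 1 alone). Among single members the difference was largest for AT5G38760, at -1.34 (95% interval -2.07 to -0.61, limma adjusted p = 0.489), and it was lower on both T14 arrays than on both CON arrays. AT3G28980 followed with -0.90 (-1.63 to -0.16), then AT1G52680 with -0.87 (-1.67 to -0.08) and AT5G61720 with -0.87 (-1.70 to -0.04), with limma adjusted p from 0.8 to 0.829. AT2G47050 had -0.76 with a narrower interval (-1.28 to -0.24, limma adjusted p = 0.758). These values did not pass, and on simulated data with 15045 probe sets the same fit recovered 34 of 100 probe sets changed 2-fold in T14 against CON and 84 of 100 changed 4-fold. That recovery is over simulated probe sets and is not a rate for the members. The members' median standard error in this contrast was 0.274, against 0.219 over the probe sets with a CON mean of at least 60.

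Each array was then left out of the choice in turn, and the members found on the other 7 arrays were looked up on it. Without T13 replicate 1 the rule found 110 members, and on that array 92 of them (83.6%) lay below all CON and T14 arrays, where 15.8% of probe sets with a CON mean of at least 60 did. Without T13 replicate 2 it was 91 of 94 (96.8%, against 19.1%), without HET replicate 1 95 of 96 (99%, against 27.8%) and without HET replicate 2 73 of 73 (100%, against 16.8%). The T14 arrays lay above all T13 and HET arrays in 91 of 100 (91%, against 17.3%) for replicate 1 and 90 of 95 (94.7%, against 19.9%) for replicate 2. For CON it was 93 of 94 (98.9%, against 17.5%) and 85 of 87 (97.7%, against 13.7%). T13 replicate 1 was thus the array on which the most members failed to repeat. The arrays of a group may share a plant pool, so this describes agreement between arrays.

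**Figure D5:**
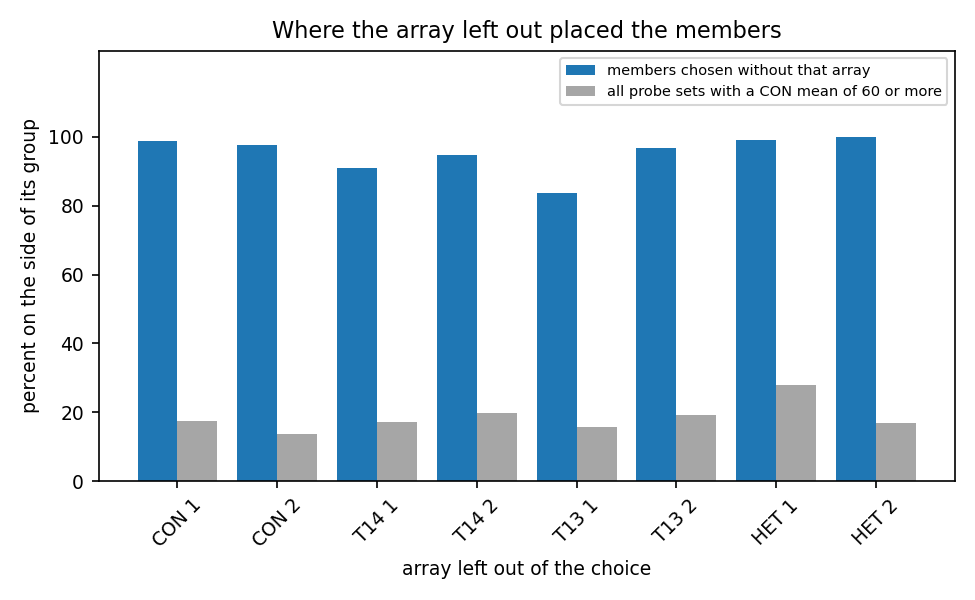
For each array left out of the choice, the blue bar gives the percent of members, chosen on the other 7 arrays, that lay on the side of its group, and the grey bar the same over all probe sets with a CON mean of 60 or more. Blue bars run from 83.6 to 100% and grey bars from 13.7 to 27.8%.

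Values near the thresholds show how the set ends. At the CON minimum the members GH9B11 and 2 unnamed probe sets stood at 61.4 to 64.6, while AT2G21990, AT2G40990 and an unnamed probe set stood just outside at 58.2 to 59.1. At the fall of 0.8 the members closest to it were AT3G23170 (0.824) and 2 unnamed probe sets at 0.801 and 0.817. Just short of it were AT3G14595 (0.76), AT2G26850 (0.756) and an unnamed probe set (0.768).

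Apart from 6 left out by name, 64 probe sets met every other step but lay 0.5 or more lower in HET than in T13. They differed from the members by that choice. In T13 they stood at a median of 32.4% of CON, next to 30.2% in the members, and in HET at 16.3%, next to 23.1%. Their T14 minus CON median was -0.22, next to -0.35, and the difference between the sets was not tested. T14 replicate 2 was above replicate 1 in 62 of the 64. 

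The remaining members are 11 with a listed gene for which no role is given here and 39 unnamed probe sets. The 11 kept a median of 25.4% of CON in T13 and 20.4% in HET. Among them AT5G62750 read 63.3 and 134.3 in CON, 42.1 and 103.6 in T14, 10.4 and 9 in T13 and 6.8 and 0.3 in HET. AT4G18395 read 138 and 147.2 in CON, 101.9 and 177.8 in T14, 30 and 40.3 in T13 and 25 and 34.6 in HET, with T13 and HET overlapping. The 39 unnamed probe sets had CON means of 61.4 to 1530 and kept a median of 31.9% in T13 and 24.9% in HET. One of them read 1567 and 1483.8 in CON, 1125.6 and 1534.4 in T14, 486.7 and 485 in T13 and 360.5 and 365.4 in HET, with little spread inside T13 or HET. Another read 1114.6 and 1130.3 in CON, 737.8 and 1066.9 in T14, 339.2 and 342.6 in T13 and 215.7 and 302.7 in HET, and one more 874.6 and 870 in CON, 535.2 and 708.1 in T14, 218.9 and 201.8 in T13 and 150.8 and 176.8 in HET. In these 3 bright probe sets HET lay below T13 on both arrays and T14 replicate 1 was the lower T14 array. A dimmer one with one of the largest falls read 495.5 and 531.6 in CON, 233.4 and 430.5 in T14, 113.9 and 81 in T13 and 59.1 and 76.9 in HET, again with HET below T13 on both arrays.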

How the data were processed

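Each of the 8 arrays has a deposited linear intensity for 22810 probe sets, 64 of them controls. The software with which the authors summarised the probes is not named in the sources at hand. The deposited intensity values already shared a trimmed mean and were not scaled again. No detection calls were used, so a reading near 0 is only a low signal, and signals of different probe sets are not compared as transcript levels. Precision is limited by having few arrays.

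Gene names are those of the platform's annotation table, brought up to date through RefSeq TAIR10.1: 13513 probe sets had 1 gene, 503 several and 8794 none listed. Probe sets with several genes are described by all of them. The files name no genome build, so no coordinates are printed. Promoter and protein sequences were not used here.

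The rule was applied to log2(intensity + 16). For tests, probe sets at or above the 40th percentile of their own array on at least 2 arrays were kept (15045), and limma 3.58.1 in R 4.3.3 fitted 4 group means with an intensity trend on all 8 arrays, leaving 4 residual degrees of freedom. Benjamini-Hochberg adjustment ran within a comparison, with calls at 0.05. Log2 differences carry the added 16 and are too small for dim genes. Replicates are numbered in accession order and do not pair arrays. The fit was tested on simulated data, with 3 false calls. The members and the 10 gene lists were chosen with earlier results of these data known. The 13 family patterns fixed with the lists found no member, since the annotation tables hold few descriptions. Named genes followed a rule: the largest falls, the highest CON means, the ends of the HET minus T13 and T14 minus CON differences, the members next to each threshold, and up to 4 of a list or family. Some such probe sets without a gene are given by range only, and further genes of the role groups are named beyond the rule, chosen after their values were seen. The role groups replaced the family patterns and were made after the values had been seen. Figures were drawn with matplotlib 3.10.9.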

Additional observations from a re-analysis of the deposited data

Results flagged for a closer look

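The GAPDH control signal, which no comparison of the members measures, had a 5' to 3' ratio of 0.345 for HET replicate 1, and the CON arrays had 0.086 and 0.129. Of the members found without that array, 95 of 96 lay below all CON and T14 arrays on it. The part of this ratio in the HET values was not tested beyond the covariate given with the processing and the omission of this array given with the difference between HET and T13.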

How the results depend on the processing

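No paired analysis was possible because the replicate numbers only follow accession order. The number of members was 92, from 73 to 110 when 1 array was left out and from 62 to 109 under 7 other settings. With a pseudocount of 1 it was 76, of which 68 were among the 92. The median HET minus T13 difference ran from -0.275 to -0.141 without 1 array and from -0.353 to -0.134 under 4 other settings. The median T14 minus CON difference ran from -0.496 to -0.124 without 1 array, both from the T14 arrays, and from -0.381 to -0.317 otherwise. No member was called in T14 against CON in limma under any of 8 other settings with all 8 arrays. At an unadjusted p under 0.05 (limma) 11 of 92 members stood with a pseudocount of 1, against 857 of 15045 probe sets. With scanner background as a covariate it was 20 of 92, against 450 of 15045, and the other settings lay within 11 to 20. Leaving out 1 array leaves 1 array in a group, so no counts are given there. Without CON replicate 2 the members' share at that unadjusted p was below that of all probe sets. The counts of members called in contrasts that the choice used moved more. In T13 against CON 39 became 16 without the filter and 25 with the GAPDH ratio as a covariate, and 5 to 50 without 1 array. They were 21 without CON replicate 1, 5 without CON replicate 2, 16 without T13 replicate 1 and 19 without T13 replicate 2. In HET against CON 59 became 34 without the filter, 39 with scanner background and 11 with the GAPDH ratio as a covariate, and 25 to 71 without 1 array. They were 28 without CON replicate 2, 25 without HET replicate 1 and 30 without HET replicate 2. More probe sets are tested without the filter, and fewer arrays enter when 1 is left out. For the covariates the cause was not tested.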

Other observations

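Outside the members, some named genes had a profile over the 8 arrays that correlated with that of the 6 members in which T14 replicate 1 was high. They were looked for after those values had been seen, by Pearson's r with the mean profile of the 6 over 8 arrays of log2(intensity + 16). The search covered named probe sets whose CON mean reached 60 and that passed a minimum SD over the arrays, and r is given as a description. Other members were also among the highest r, first AT2G19000 (r = 0.882), with 81.2 and 73.9 in T14. AT2G38900 came first (r = 0.981), with 83.9 and 136.3 in CON, 248.6 and 19.5 in T14, 30.7 and 9 in T13 and 3.1 and 8.5 in HET. It is no member because its T14 replicate 2 lay below T13 replicate 1. AT5G09370 (r = 0.911) read 82.5 and 111.7 in CON, 199.5 and 41.9 in T14, 35.9 and 36.6 in T13 and 43.6 and 8.5 in HET. DFR, which encodes dihydroflavonol reductase and stands upstream of BAN in proanthocyanidin synthesis, had r = 0.881 and read 112.2 and 114.7 in CON, 156.5 and 69.3 in T14, 69.4 and 75.5 in T13 and 32 and 44.8 in HET. In AT5G09370 and DFR the order of the arrays differed from that of the 6, with T13 replicate 2 above replicate 1. AT5G01870 (r = 0.836) read 128.5 and 232.6 in CON, 397.2 and 115.9 in T14, 124.4 and 63.5 in T13 and 155 and 112.8 in HET. A high T14 replicate 1 is favoured by the way the genes were found, yet AT5G07420 (r = 0.86) read 84.2 and 94.6 in T14 and up to 175 in CON, and AT3G17060 (r = 0.806) read 144.8 and 156.1 in T14, so that T14 replicate 1 was not their highest array. Both of these met every step of the rule and are no members only because they are left out by name. Their lower T13 and HET signal is thus the one that the rule asks for.

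Over the 92 members the difference between the CON arrays and that between the T14 arrays had a Pearson's r of -0.191, against 0.274 over the 11004 probe sets with a CON mean of at least 60. The 92 include the 6 members with a high T14 replicate 1, and in all 6 CON replicate 2 was above replicate 1. These 6 pull r down, and r over the other members was not computed. The probe sets share the same 4 arrays, so both values are descriptions.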
